A study of Mus musculus with 9 samples.

Results

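The genes described here encode the enzymes and transporters that carry glucose into mouse pre-B cells, break it down to lactate and feed the pentose phosphate pathway. They were chosen by name, 36 genes in all, and each was read by the probe set with its symbol that had the highest mean intensity over the 9 arrays. A probe set carrying the symbol was found for 32 of the 36, among the 18194 genes named on the array. Pfkfb1, Gpi1, Eno1 and G6pdx were not analysed here. Slc2a6, a glucose transporter of the same family as GLUT1, was dim and stayed under the filter on mean intensity, at 70.2, 61.5 and 64.2 in low IL-7, 67.0, 74.9 and 89.9 in IRF4 arrays and 70.8, 69.9 and 74.3 in high IL-7, so 31 genes were tested.

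The cells were precursors of B lymphocytes with the genotype IRF4,8 -/-, so both transcription factors of the interferon regulatory family were missing in all 3 groups before any treatment. In the first group the cells were cultured in low IL-7 (0.25 ng), in the second IRF4 was reintroduced and the cells were kept in high IL-7 (5 ng), and in the third they were kept in high IL-7 (5 ng) without IRF4, with 3 arrays per group. The labels disagree on the volume to which the IL-7 amounts refer. They name no group handled like the second but without IRF4, so IRF4 and the means of putting it back cannot be told apart. Whether the 3 arrays of each group stem from different cultures or mice is not stated, so the p-values reflect array-to-array spread alone, which may be technical.

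In glycolysis, hexokinases trap glucose as glucose 6-phosphate, phosphofructokinases commit it to breakdown, and the later enzymes turn the split sugar into pyruvate with a net gain of ATP. Proliferating lymphocytes send much of that pyruvate to lactate through lactate dehydrogenase, and pyruvate dehydrogenase kinases hold pyruvate back from the mitochondria. The pentose phosphate pathway branches off at glucose 6-phosphate and makes NADPH and ribose for nucleotides. IL-7 is the cytokine that drives growth and division of B cell precursors, and cytokine signals of this kind are known to keep glucose uptake high, partly through PI3K, AKT and MYC.

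The region around the start of transcription is shown for 5 members: Slc2a1 and Hk2, which passed the test with low IL-7 and with IRF4, Pfkl, which had the largest fall, Ldha, which makes lactate, and Slc16a1, which moved the other way. Each stretch runs from 250 bases before to 50 bases after the start in RefSeq on build GRCm38.p6, 5′ to 3′ on the gene's strand. Capitals mark CACGTG (the E-box bound by MYC and its relatives), ACGTG (the core of the hypoxia response element, and part of every CACGTG) and GGGCGG (the GC box bound by SP1), each on either strand. The positions are chr4:119108495-119108794 (+ strand) for Slc2a1, chr6:82774405-82774704 (- strand) for Hk2, chr10:78009758-78010057 (- strand) for Pfkl, chr7:46845554-46845853 (+ strand) for Ldha and chr3:104638414-104638713 (+ strand) for Slc16a1.
Slc2a1: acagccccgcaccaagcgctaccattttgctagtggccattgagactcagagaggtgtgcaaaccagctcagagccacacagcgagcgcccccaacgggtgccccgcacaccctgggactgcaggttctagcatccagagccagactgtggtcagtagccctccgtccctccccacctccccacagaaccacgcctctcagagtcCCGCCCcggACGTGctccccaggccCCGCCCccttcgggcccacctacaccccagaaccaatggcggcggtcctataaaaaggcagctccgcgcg
Hk2: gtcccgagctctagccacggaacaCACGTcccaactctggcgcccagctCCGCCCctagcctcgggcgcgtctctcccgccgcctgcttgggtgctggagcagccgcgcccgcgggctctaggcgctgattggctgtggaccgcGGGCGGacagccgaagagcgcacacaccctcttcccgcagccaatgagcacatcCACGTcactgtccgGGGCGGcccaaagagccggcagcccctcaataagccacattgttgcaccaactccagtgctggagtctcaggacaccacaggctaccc
Pfkl: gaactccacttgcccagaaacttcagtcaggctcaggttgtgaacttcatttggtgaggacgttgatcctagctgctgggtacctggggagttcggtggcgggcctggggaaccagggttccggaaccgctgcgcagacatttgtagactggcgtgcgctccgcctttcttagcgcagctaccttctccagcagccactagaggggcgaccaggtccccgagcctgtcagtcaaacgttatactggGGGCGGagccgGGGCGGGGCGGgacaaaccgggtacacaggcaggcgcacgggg
Ldha: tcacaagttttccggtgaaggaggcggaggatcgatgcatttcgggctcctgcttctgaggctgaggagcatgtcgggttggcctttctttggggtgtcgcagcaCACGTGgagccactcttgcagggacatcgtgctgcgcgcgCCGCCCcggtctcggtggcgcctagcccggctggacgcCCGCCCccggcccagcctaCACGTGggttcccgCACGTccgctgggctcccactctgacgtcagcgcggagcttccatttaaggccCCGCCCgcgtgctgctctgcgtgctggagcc
Slc16a1: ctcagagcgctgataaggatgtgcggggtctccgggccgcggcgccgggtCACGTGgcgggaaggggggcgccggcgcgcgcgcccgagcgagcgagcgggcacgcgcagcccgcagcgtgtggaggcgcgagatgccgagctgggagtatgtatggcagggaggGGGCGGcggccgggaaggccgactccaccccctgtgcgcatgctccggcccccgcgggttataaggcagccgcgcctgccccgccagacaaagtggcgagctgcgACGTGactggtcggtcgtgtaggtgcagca

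The Ldha window, the first of 2 listed for that gene, held 2 E-boxes, 145 and 48 bases before the start, 3 GC boxes and 1 ACGTG core outside the E-boxes. The Slc16a1 window held 1 E-box, 200 bases before the start, 1 GC box and 1 ACGTG core outside the E-box. In the Hk2 window there were 2 ACGTG cores outside an E-box and 3 GC boxes, in that of Slc2a1 1 such core and 2 GC boxes. The Pfkl window held 3 GC boxes, 2 of them overlapping, and none of the other letters. Of 55 windows listed for 35 members, 6 held CACGTG (10.9%), against 7.15% of all 32851 windows of 300 bases. ACGTG stood in 23 member windows (41.8%), against 19.6% of all windows, and GGGCGG in 31 (56.4%), against 35.7%. Windows of 1 gene can overlap, and such matches are a description of these letters only.

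Array medians lay between 139.7 and 151.3 intensity units, and 12829 genes were tested. All 12 pre-B cell markers with a probe set, Cd79a, Ebf1, Pax5, Vpreb1 and Igll1 among them, passed the filter, and their summed intensity was 96338 to 99406 in low IL-7, 64557 to 67492 with IRF4 and 60791 to 68548 in high IL-7. Of these 12, 9 rose in low IL-7 (75%, against 17.8% of all genes), while Cd79a, Pax5 and Igll1 did not pass. Blnk, Il7r, Rag1 and Rag2, which also count in the sum, averaged 10397, 5768, 4738 and 1575 in low IL-7. In high IL-7 their means were 3879, 799, 177 and 138. High IL-7 replicate 1 and IRF4 replicate 3 stood apart with an 18S control signal of 76.8 and 69.8, against 192 to 346 in the other 7 arrays. Of 18 stromal markers 15 passed the filter, and the sum of all 18 was 16009 to 23208 in low IL-7, 33646, 16518 and 17929 in the 3 IRF4 arrays and 16795, 45354 and 29790 in the 3 high IL-7 arrays. Vim, which leukocytes express too, and Acta2 belong to that sum. Among the others, Col1a2 reached 6277 and Cxcl12 reached 7051 in high IL-7 replicate 2, while Lum, Dcn and Postn were under the filter. The sum of 13 myeloid markers was 3192 to 3399, 3595 to 4122 and 2426 to 2896 in the same order of groups, with Mpo, Elane, S100a8 and S100a9 under the filter. Of 8 myeloid markers tested, Itgam changed by 2.01 (adjusted p = 8.74e-06), Fcer1g by 1.49 (adjusted p = 0.000106) and Ctss by -0.72 (adjusted p = 0.00186) in low IL-7. Itgam passed the filter only through the low IL-7 arrays, with means of 58.8 with IRF4 and 43.6 in high IL-7. With IRF4 Fcer1g changed by -1.40 (adjusted p = 0.00181) and Ctss by 1.29 (adjusted p = 0.000441). The sum of 8 erythroid markers, mostly Car2, was 9501 to 10712, 10430 to 11169 and 15482 to 16051, with Hba-a1, Klf1, Gata1 and Alas2 under the filter. The 8 T cell markers summed to 1873 to 2162, 1894 to 2301 and 1774 to 1868, with Cd3d and Cd3g under the filter. The part of these other cell types in the results below was not tested. In RNA from a whole culture, fewer cells of a type and less RNA per cell cannot be told apart.

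Low IL-7 was set against high IL-7 to see which genes follow the cytokine. Of the 31 members 24 fell and 3 rose, Eno2 among the 24 although it passed the filter only through the other groups, against a background of 19.6% of all genes lower and 17.8% higher. The median member change was -0.84 on the log2(intensity + 16) scale, used for all changes here, while the median of all genes was 0.02. At least 2-fold falls were seen in 11 members, against 4.11% of all genes. The 3 low IL-7 arrays lay below the 3 high IL-7 arrays in 24 members, Eno2 again included (background 24.8%), and above them in 5 (background 25.5%). The 3 that rose were Slc16a1, Pdk2 and Pgls. With replicate 1 of high IL-7 and replicate 3 of IRF4 left out, the counts were again 24 and 3. Of 15 stromal markers tested, 4 fell (26.7%, against 19.6% of all genes) and 1 rose (6.67%, against 17.8%). Their median change was -1.49. Pdgfra changed by -2.66 (adjusted p = 0.0195), Col3a1 by -2.74 (adjusted p = 0.0317), Col6a1 by -1.99 (adjusted p = 0.0444), Thy1 by -0.37 (adjusted p = 0.0404) and Acta2 by 0.43 (adjusted p = 0.0333). Pdgfra and Col3a1, like Eno2, passed the filter only through the other groups. Their low IL-7 means of 82.4 and 89.3 lay under it, so their falls ended at levels below the filter. High IL-7 replicate 1 read 1080.0 for Col1a2 and 711 for Cxcl12, within the low IL-7 ranges of 455 to 1462 and 279.7 to 1669.6. Its Pdgfra, Col3a1 and Col6a1 values of 223, 309.7 and 486 were above the highest low IL-7 values of 101, 112 and 391 and below those of the other high IL-7 arrays. The median difference of the members from the high IL-7 mean was -0.90 to -0.72 in the low IL-7 arrays and 0.06 in high IL-7 replicate 1. That single array is itself part of the mean and had a low 18S signal. The part of stromal cells in the members' fall was not tested.

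**Figure D1:**
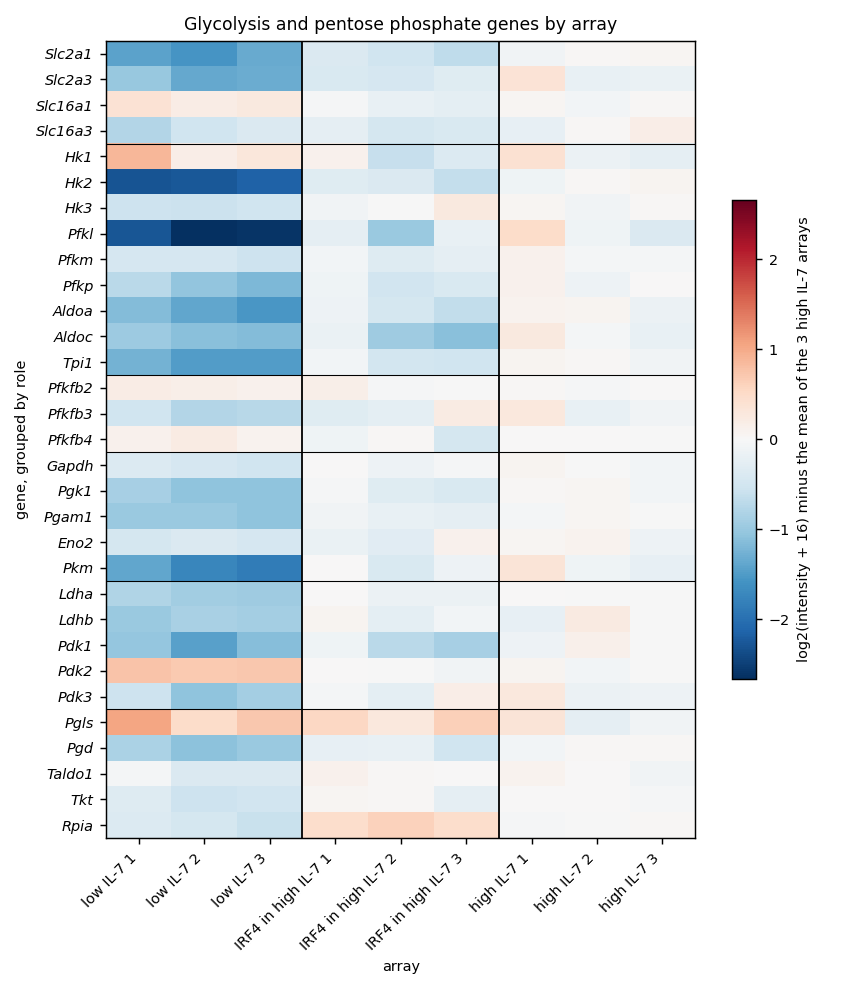
Heat map of 31 genes (rows, grouped by role) in 9 arrays (columns, 3 per group). Colour gives log2(intensity + 16) minus the gene's mean in the 3 high IL-7 arrays. Hk2 and Pfkl are the deepest blue in all 3 low IL-7 arrays, Slc16a1, Pdk2 and Pgls are red there, and Rpia is red in the 3 IRF4 arrays.

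Glucose enters through the GLUT transporters. Slc2a1, which encodes GLUT1, the main glucose transporter of dividing lymphocytes, read 228, 206 and 241 in low IL-7, 486, 437 and 394 in IRF4 arrays and 602, 656 and 660.5 in high IL-7. The 3 groups did not overlap, with high IL-7 at the top and low IL-7 at the bottom. In low IL-7 it fell by 1.45 (SE 0.10, 2.72-fold, adjusted p = 2.65e-06). Slc2a3, the high-affinity transporter GLUT3, read 449, 343 and 356 in low IL-7, 682, 668 and 725 in IRF4 arrays and 1178, 795 and 810.0 in high IL-7. Low IL-7 again lay below both other groups, and the fall was 2.34-fold (log2 change -1.23, SE 0.15, adjusted p = 0.000125).

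Lactate leaves through the monocarboxylate transporters, and the 2 measured here went opposite ways in low IL-7. Slc16a1, which encodes MCT1 and can carry lactate in either direction, read 6599, 5736 and 5991 in low IL-7, 4888, 4394 and 4187 in IRF4 arrays and 5244, 4747 and 5100.2 in high IL-7. All low IL-7 arrays were above all others, a rise of 0.28 (SE 0.08, 1.21-fold, adjusted p = 0.0143). This small rise no longer passed when replicate 2 of high IL-7 was dropped (adjusted p = 0.0563) and with the arrays scaled to 1 median (adjusted p = 0.0741) or with the mean of all its probe sets (adjusted p = 0.119). Its other probe set past the filter was dim and changed by 0.05 (adjusted p = 0.686). Slc16a3, which encodes MCT4, the low-affinity exporter of strongly glycolytic cells, read 128, 153 and 172 in low IL-7, 191, 160.2 and 168 in IRF4 arrays and 196, 234 and 261 in high IL-7. Low IL-7 was below high IL-7 in all arrays and overlapped with IRF4. The fall was 1.48-fold (log2 change -0.56, SE 0.13, adjusted p = 0.00527).

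The 3 hexokinases did not share a direction. Hk2, the inducible form, read 253, 259 and 281 in low IL-7, 1033, 989 and 834 in IRF4 arrays and 1204, 1336 and 1374 in high IL-7. Low IL-7 lay far below the other groups, with a mean intensity of 264 ± 15.1, against 1305 ± 89.2 in high IL-7 (SD, n = 3 each). It fell by 2.23 (SE 0.10, 4.71-fold, adjusted p = 3.88e-07), which placed Hk2 26th from the lowest of 12829 genes. Hk1, the constitutive form, read 1007, 613 and 667 in low IL-7, 579.6, 347 and 417 in IRF4 arrays and 715, 479 and 454 in high IL-7. Its groups overlapped and its change of 0.46 had a 95% interval, for the single gene as all those given here, of -0.07 to 0.98 (adjusted p = 0.163). Same-numbered low and high IL-7 arrays deviated together. With a replicate block by array number over all arrays, the IRF4 arrays included, the change of Hk1 passed (adjusted p = 0.00423). The pairing by number was inferred from the data alone. For Hk1 the low IL-7 array was above the high IL-7 array of the same number in all 3 pairs. Hk3, known mainly from myeloid cells, read 279, 272 and 280.1 in low IL-7, 387, 409.6 and 501 in IRF4 arrays and 431, 389.5 and 422 in high IL-7. It fell by 0.55 (SE 0.10, adjusted p = 0.00159), with low IL-7 below both other groups, which overlapped.

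Phosphofructokinase, the committing step, is built from 3 kinds of subunit, and all 3 genes fell. Pfkl, the liver-type subunit, read 339, 257 and 269 in low IL-7, 1446, 852 and 1494 in IRF4 arrays and 2402, 1574 and 1312 in high IL-7. The low IL-7 values were tight and far below the rest, while the other groups spread widely, with high IL-7 replicate 1 the highest array. It fell by 2.51 (SE 0.25, 5.70-fold, adjusted p = 2.48e-05), which placed Pfkl 19th from the lowest of 12829 genes. Pfkp, the platelet-type subunit, read 784, 616 and 557 in low IL-7, 1196, 909 and 973 in IRF4 arrays and 1415, 1176 and 1313 in high IL-7 and fell by 0.99 (SE 0.14, adjusted p = 0.000344). Pfkm, the muscle-type subunit, read 261, 259.9 and 241 in low IL-7, 344, 281 and 307 in IRF4 arrays and 393, 349 and 348 in high IL-7 and fell by 0.49 (SE 0.09, adjusted p = 0.00213). Low and high IL-7 did not overlap in any of the 3 genes. The 95% intervals were -3.07 to -1.96 for Pfkl, -1.31 to -0.67 for Pfkp and -0.70 to -0.28 for Pfkm.

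The bifunctional PFKFB enzymes set the level of fructose 2,6-bisphosphate, the activator of phosphofructokinase. Pfkfb3, the form with the strongest kinase activity, read 559.7, 464 and 483 in low IL-7, 649.6, 673 and 943 in IRF4 arrays and 990.0, 711 and 758 in high IL-7. Low IL-7 lay below both other groups, which overlapped, and the gene fell by 0.68 (SE 0.16, adjusted p = 0.00771). Pfkfb2 lay between 114 and 138 in all arrays and changed by 0.16 (95% interval -0.01 to 0.33, adjusted p = 0.128). Pfkfb4 lay between 206 and 341 and changed by 0.14 (95% interval -0.12 to 0.41, adjusted p = 0.387). In both the 3 low IL-7 arrays were above the 3 high IL-7 arrays, though neither passed the test.

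Aldolase splits the sugar and triose phosphate isomerase makes its products interchangeable. Aldoa, the main aldolase outside liver and brain, read 2487, 2128 and 1902 in low IL-7, 5057, 3987 and 3521 in IRF4 arrays and 5960.2, 5799 and 4946 in high IL-7 and fell by 1.36 (SE 0.14, 2.56-fold, adjusted p = 3.02e-05). Tpi1 read 2626, 2247 and 2234 in low IL-7, 6001, 4503 and 4378 in IRF4 arrays and 6624, 6410.0 and 5931 in high IL-7 and fell by 1.41 (SE 0.12, 2.66-fold, adjusted p = 7.42e-06). For both, every low IL-7 array was below every other array. Aldoc, the brain-type aldolase, was dim, at 132, 117 and 114 in low IL-7, 241, 135 and 119 in IRF4 arrays and 329, 263 and 236 in high IL-7, and fell by 1.08 (SE 0.21, adjusted p = 0.00225). Its IRF4 arrays overlapped with both other groups.

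In the second phase of glycolysis, from glyceraldehyde 3-phosphate to pyruvate, Gapdh, Pgk1, Pgam1 and Pkm fell in low IL-7, and Eno2 was called at levels under the filter. Gapdh, which makes the first high-energy intermediate and is often used as a reference gene, read 11887, 11239.8 and 10618 in low IL-7, 15473, 13922 and 14981 in IRF4 arrays and 16245, 15249 and 14624 in high IL-7 and fell by 0.45 (SE 0.06, 1.37-fold, adjusted p = 0.000113). It was read only by control probe sets. Pgk1, which yields ATP, read 5174, 4507 and 4541 in low IL-7, 9274, 7631 and 7185 in IRF4 arrays and 9698, 9804 and 8994 in high IL-7 and fell 2.0-fold (SE of the log2 change 0.09, adjusted p = 1.41e-05). Pgam1, which moves the phosphate group on the way to pyruvate, read 4102, 4119 and 3917 in low IL-7, 7689, 7106 and 6959 in IRF4 arrays and 7903, 8495 and 8189.8 in high IL-7 and fell by 1.02 (SE 0.05, adjusted p = 6.74e-07). In all 3 genes low IL-7 lay below both other groups, without overlap.

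Pkm, pyruvate kinase, which makes pyruvate and ATP, had the largest fall of this phase. It read 2612, 2033 and 1863 in low IL-7, 6826, 5174 and 6232 in IRF4 arrays and 8582, 6281 and 5859 in high IL-7, and it fell by 1.66 (SE 0.16, 3.16-fold, adjusted p = 2.39e-05). One probe set read Pkm, so its M1 and M2 splice forms were not told apart. Eno2, the neuronal enolase, was dim, at 89.6, 94.8 and 90.2 in low IL-7, 113, 101 and 141 in IRF4 arrays and 134, 139.5 and 116 in high IL-7. It passed the filter of 108.0 on the mean of the 9 arrays through the other groups, since its low IL-7 mean of 91.5 ± 2.86 (SD, n = 3) lay below that level. It fell by 0.44 (SE 0.11, adjusted p = 0.00966), with low IL-7 at levels below the filter.

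Both lactate dehydrogenases fell in low IL-7. Ldha, whose subunit favours the making of lactate, read 8288, 7639 and 7501 in low IL-7, 14569, 13030.1 and 13094 in IRF4 arrays and 14687, 14302 and 14484 in high IL-7 and fell by 0.89 (SE 0.05, 1.86-fold, adjusted p = 1.13e-06). Ldhb, whose subunit favours the way back to pyruvate, read 266, 291 and 283 in low IL-7, 571, 449 and 513 in IRF4 arrays and 460.3, 636 and 538 in high IL-7 and fell by 0.91 (SE 0.13, adjusted p = 0.000243). In both, low IL-7 did not overlap with the other groups, which overlapped with each other.

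The pyruvate dehydrogenase kinases parted. Pdk1, a known hypoxia-inducible target, read 1086, 817 and 1010.3 in low IL-7, 2077, 1365 and 1199 in IRF4 arrays and 2033, 2468 and 2237 in high IL-7 and fell by 1.20 (SE 0.19, 2.30-fold, adjusted p = 0.000515). Pdk3 read 717, 497 and 554 in low IL-7, 1013, 877 and 1193 in IRF4 arrays and 1287, 941 and 963 in high IL-7 and fell by 0.84 (SE 0.17, adjusted p = 0.0028). In both, low IL-7 lay below all other arrays. Pdk2, the widely expressed form, read 217, 205 and 208 in low IL-7, 123, 119.7 and 113 in IRF4 arrays and 128, 115 and 121 in high IL-7. All low IL-7 arrays of Pdk2 were above all others, whose values spanned only 113 to 128, and it rose by 0.72 (SE 0.07, 1.65-fold, adjusted p = 2.77e-05).

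**Figure D2:**
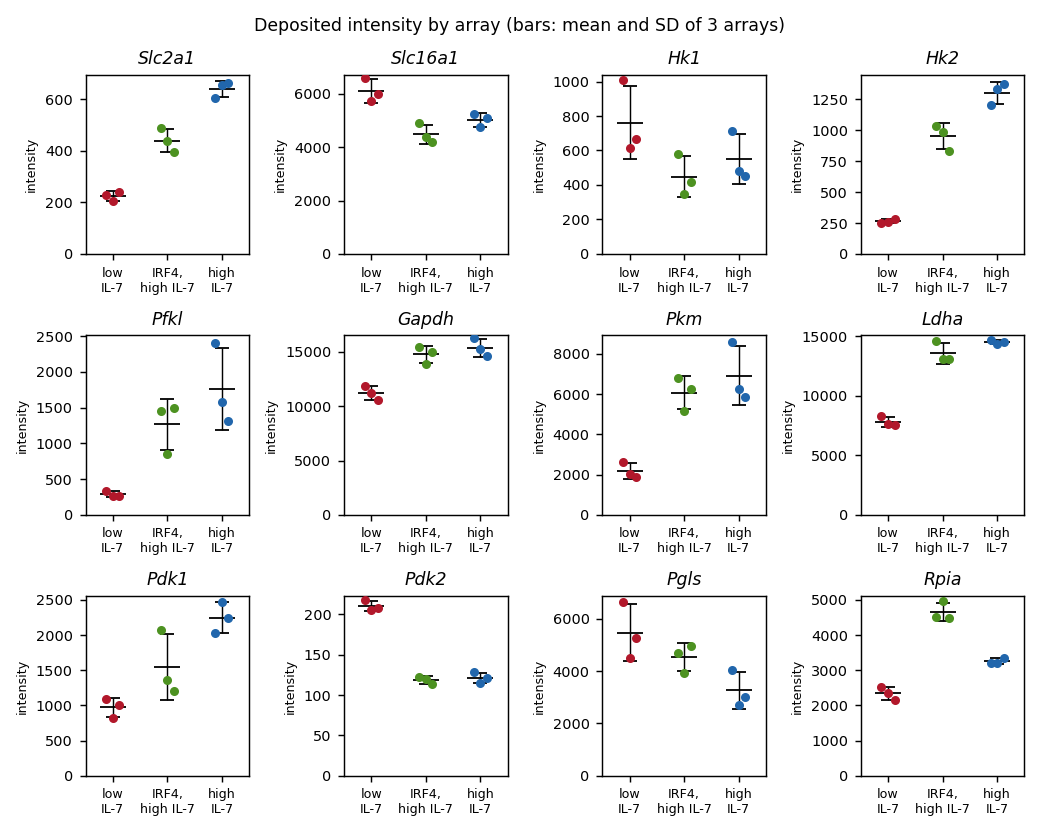
Deposited intensity (vertical axes, from 0) of 12 genes in the 3 arrays of each group, low IL-7 left, IRF4 in high IL-7 in the middle and high IL-7 right. Points are arrays, bars give the mean and SD. Hk2 and Pfkl are lowest in low IL-7, Pdk2 is highest there, and Rpia is highest with IRF4, at 4477 to 4964.

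In the pentose phosphate pathway 3 of 5 tested genes fell and 1 rose in low IL-7. Pgd, which releases NADPH in the oxidative branch, read 1881, 1559.8 and 1699 in low IL-7, 2894, 2912 and 2332 in IRF4 arrays and 3210.3, 3452 and 3418 in high IL-7 and fell by 0.97 (SE 0.10, 1.96-fold, adjusted p = 3.70e-05). Pgls, the lactonase one step before it, read 6660.1, 4490.2 and 5286 in low IL-7, 4705, 3929.9 and 4968 in IRF4 arrays and 4060.2, 2712 and 3011 in high IL-7 and rose by 0.75 (SE 0.17, 1.68-fold, adjusted p = 0.00537). The consecutive enzymes thus changed in opposite directions, with no overlap between low and high IL-7 in either.

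In the non-oxidative branch Tkt, transketolase, read 8785, 7613 and 7875 in low IL-7, 11610.0, 11396 and 9415 in IRF4 arrays and 11260.2, 11277 and 10955 in high IL-7 and fell by 0.47 (SE 0.08, adjusted p = 0.000917). Taldo1, transaldolase, read 2303, 1834 and 1811 in low IL-7, 2600.3, 2449.5 and 2414 in IRF4 arrays and 2548, 2397 and 2221 in high IL-7 and changed by -0.27 (95% interval -0.50 to -0.05, adjusted p = 0.0555). Its low IL-7 replicate 1 lay within the high IL-7 range, and the change passed when arrays were paired by a replicate block (adjusted p = 0.0228), as it did without that array (adjusted p = 0.00466). Rpia, which makes ribose 5-phosphate, fell by 0.48 (SE 0.07, 1.39-fold, adjusted p = 0.000545) in low IL-7 but went the other way when IRF4 was added, as described next.

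Putting IRF4 back while IL-7 stayed high asks what the factor changes without a drop in IL-7. Here 1 member rose and 2 fell, against 1.89% of all genes higher and 0.951% lower. The median change was -0.18, against -0.01 over all genes, and 26 of 31 members had a negative change, against 52.3% of all genes. The IRF4 arrays all lay below the high IL-7 arrays in 7 members (22.6%, background 11%) and above them in 1 (background 10%). None fell or rose at least 2-fold, against 0.179% and 0.686% of all genes. With replicate 1 of high IL-7 and replicate 3 of IRF4 left out, 1 rose and 1 fell. Array weights gave 16 lower and 2 higher, with 25.9% of all genes called, and a fit without the low IL-7 arrays gave 0 lower, with 1.73% of all genes called. In the fit over all arrays 15 members (48.4%) had an unadjusted p under 0.05, against 15.1% of all genes.

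Rpia was the member that rose with IRF4. It read 2515, 2361 and 2145 in low IL-7, 4526, 4964 and 4477 in IRF4 arrays and 3201, 3217 and 3347 in high IL-7, and the 3 groups did not overlap. The rise was 0.51 (SE 0.07, 1.43-fold, adjusted p = 0.00365) and passed under each alternative tried, leaving out any 1 array included. Pgls, at 0.49 (95% interval 0.11 to 0.86, adjusted p = 0.194), did not pass.

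Slc2a1 fell by 0.53 with IRF4 (SE 0.10, 1.44-fold, adjusted p = 0.0181), with all IRF4 arrays, at 394 to 486, below all high IL-7 arrays, at 602 to 660.5. The call was lost without IRF4 replicate 2 (adjusted p = 0.0745) or 3 (adjusted p = 0.0564) and without high IL-7 replicate 2 (adjusted p = 0.0657) or 3 (adjusted p = 0.0932). Hk2 fell by 0.45 (SE 0.10, 1.37-fold, adjusted p = 0.0468), again with no overlap. This call was lost without any 1 array other than high IL-7 replicate 1 and IRF4 replicate 1 (adjusted p = 0.0589 to 0.199). It was also lost without high IL-7 replicate 1 and IRF4 replicate 3 together (adjusted p = 0.0651).

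Among the members that did not pass with IRF4, the widest differences were those of Aldoc, at -0.74 (95% interval -1.21 to -0.27, adjusted p = 0.112), Pdk1, at -0.57 (interval -0.98 to -0.16), the Pgls value given above, and Pfkl, at -0.47 (interval -1.03 to 0.08). The IRF4 arrays were unlike each other here. Pdk1 read 2077 in IRF4 replicate 1, within the high IL-7 range of 2033 to 2468, but 1365 and 1199 in the other two. Taken over the 31 members, the median difference from the high IL-7 mean was -0.07 in IRF4 replicate 1, -0.26 in replicate 2 and -0.23 in replicate 3, against -0.90 to -0.72 in the low IL-7 arrays. IRF4 replicate 1 was also the IRF4 array with the highest stromal marker sum, 33646. Of the 15 stromal markers tested none passed limma's test with IRF4 after adjustment and 1 had an unadjusted p under 0.05 (median -0.998), and the part of these in the result was not tested. Without IRF4 replicate 1, 7 members fell, namely Slc2a1, Hk2, Aldoa, Aldoc, Tpi1, Pgk1 and Pdk1, and the calls over all genes went up to 605, against 365 with all arrays.

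Gapdh and Ldha, enzymes of the lower pathway, were tightly bounded with IRF4. The 95% interval was -0.18 to 0.07 for Gapdh and -0.21 to 0.02 for Ldha. For Pdk2, a pyruvate dehydrogenase kinase, it was -0.19 to 0.13. The IRF4 and high IL-7 arrays of Pdk2, at 113 to 128, lay little above the filter of 108.0. They are not known to stand above background, so that interval may not bound a change. In low IL-7 the same genes changed by -0.45, -0.89 and 0.72. Both comparisons share the high IL-7 arrays, so these are each comparison's own values set side by side.

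**Figure D3:**
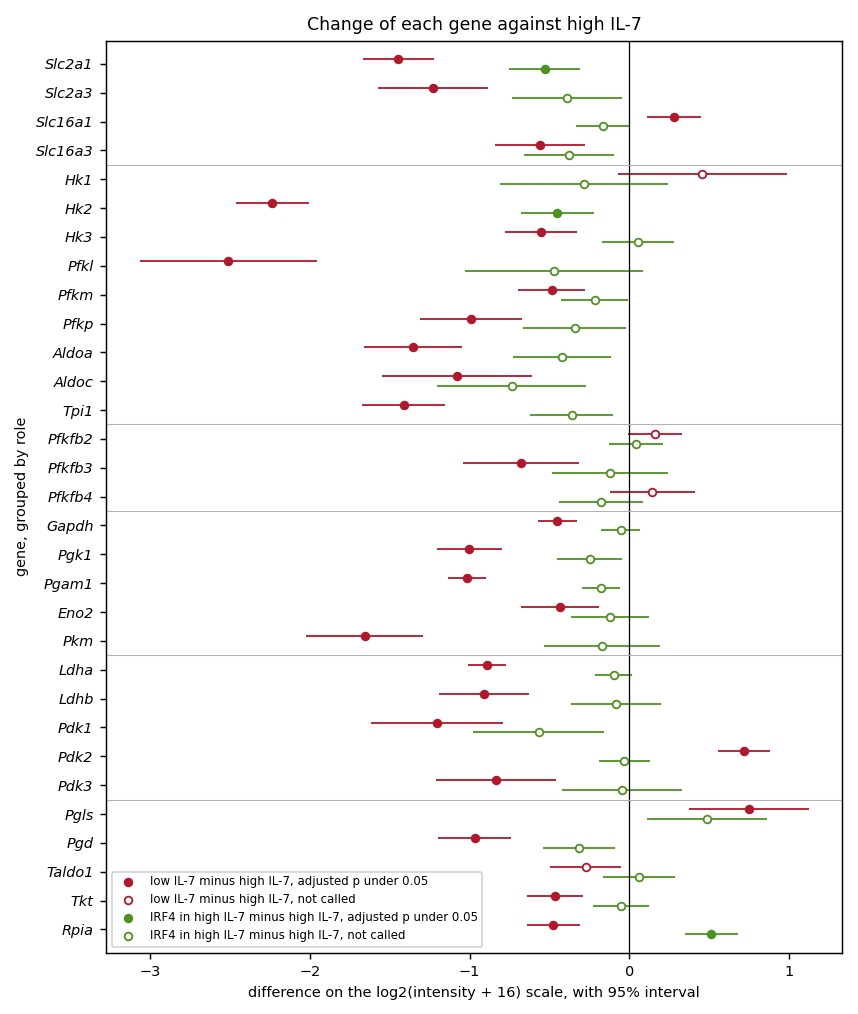
Change of each of 31 genes on the log2(intensity + 16) scale (horizontal axis) with its 95% interval, low IL-7 minus high IL-7 in red and IRF4 in high IL-7 minus high IL-7 in green. Filled points passed an adjusted p of 0.05. In red 24 filled points lie left of 0 and 3 right of it, in green 2 lie left and 1 right.

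Setting low IL-7 against the IRF4 arrays tests directly whether the 2 changes differ, because the high IL-7 arrays drop out. Of 31 members 23 were lower and 3 higher in low IL-7, against 18.6% and 17.7% of all genes, and 4 were at least 2-fold lower (background 2.98%). Eno2, which passed the filter only through the other groups, was among the 23. Hk2 differed by -1.78 (SE 0.10, 3.44-fold, adjusted p = 1.58e-06), Pfkl by -2.04 (SE 0.25, 4.11-fold, adjusted p = 0.000123) and Pkm by -1.48 (SE 0.16, 2.80-fold, adjusted p = 6.22e-05). Slc2a1 differed too, by -0.92 (SE 0.10, adjusted p = 5.73e-05), so its fall with IRF4 was smaller than that in low IL-7. For Rpia, which moved opposite ways, the difference was -0.99 (SE 0.07, adjusted p = 6.00e-06).

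The 3 that were higher in low IL-7 than with IRF4 were Pdk2 (0.75, adjusted p = 2.84e-05), Hk1 (0.74, adjusted p = 0.0322) and Slc16a1 (0.44, adjusted p = 0.00107). No difference passed for Slc16a3 (95% interval -0.47 to 0.09), Aldoc (-0.81 to 0.13), Pfkfb2 (-0.05 to 0.29), Pfkfb4 (0.06 to 0.59) and Pgls (-0.12 to 0.64), with adjusted p between 0.0569 and 0.283. Leaving out single arrays ended 6 of the 26 calls. Pfkm lost it without any array but IRF4 replicate 2 and high IL-7 replicate 1 (adjusted p = 0.0613 to 0.156), and Eno2 without any but IRF4 replicate 2 (adjusted p = 0.0515 to 0.145). Hk1 lost it when replicate 1 or 3 of low IL-7 or replicate 2 or 3 of IRF4 was dropped (adjusted p = 0.0546 to 0.118), and Pfkfb3 when replicate 2 or 3 of low IL-7 or replicate 3 of IRF4 was (adjusted p = 0.0697 to 0.0733). Pdk1 lost it without low IL-7 replicate 2 or 3 (adjusted p = 0.0503 to 0.0843), and Taldo1 when replicate 2 or 3 of low IL-7 or replicate 1 or 2 of IRF4 was dropped (adjusted p = 0.0565 to 0.104). Pfkfb4 passed without IRF4 replicate 2 (adjusted p = 0.0205).

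Several probe sets past the filter read 16 of the members, and for 10 of these every probe set fell in low IL-7, adjusted over all probe sets. No member had probe sets called in both directions. With IRF4 none of the 16 had every probe set called. Slc2a1 fell in 2 of its 3 probe sets, and the other was at -0.46 (adjusted p = 0.0657). A second probe set of Pfkp fell by 0.79 with IRF4 (adjusted p = 0.0253), while the brightest was at -0.34 (adjusted p = 0.297). That second probe set did not differ between low IL-7 and IRF4 (-0.13, adjusted p = 0.56). Sizes varied within a gene: the 5 probe sets of Aldoa fell by 1.09 to 2.02 and the 3 of Tpi1 by 1.41 to 1.73. For Pfkl the third probe set read 147, 193 and 189 in low IL-7, 188, 183 and 197 in IRF4 arrays and 221, 229 and 216 in high IL-7 and fell by only 0.32 (adjusted p = 0.0305). A dim second probe set of Pfkfb3 changed by -0.09 (adjusted p = 0.367) and the third of Tkt by 0.01 (adjusted p = 0.93). The dimmest probe set of Ldhb changed by -1.73 and did not pass (adjusted p = 0.0505). It read 26.3, 39.4 and 39.1 in low IL-7, 250, 34.6 and 45.7 in IRF4 arrays and 54.8, 298 and 195 in high IL-7. Its 3 highest values came from the arrays with the highest stromal marker sums, and the part of stromal cells in them was not tested. The values above come from probe sets of the _x_at kind, whose probes can match other sequences, for Aldoa, Tpi1, Pgd and Tkt, and of the _s_at kind for Slc2a3. Processed pseudogenes of Gapdh, Pgk1, Aldoa, Ldha and Tpi1 are common in mammals, and the arrays may not separate their transcripts from the gene's own.

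Other genes of the pathway were taken from lists drawn up by function. Beside each count stand the shares of all genes, 19.6% lower and 17.8% higher in low IL-7. With IRF4 these shares were 0.951% and 1.89%. Of 21 further glycolysis and hexose genes tested, 8 fell and 1 rose in low IL-7 (median -0.14, against 0.02 over all genes). Ldhc, a testis lactate dehydrogenase gene, changed by -1.11 (SE 0.08, adjusted p = 3.16e-06), Adpgk, the ADP-dependent glucokinase, by -0.85 (SE 0.10, adjusted p = 8.42e-05), and Bsg, the chaperone of the lactate transporters, by -0.92 (SE 0.12, adjusted p = 0.000172). Slc2a9, a urate transporter of the GLUT family, rose by 1.23 (SE 0.08, adjusted p = 2.26e-06). With IRF4 1 of the 21 fell, Slc2a8, an intracellular GLUT, at -0.50 (SE 0.08, adjusted p = 0.00633), beside -0.58 in low IL-7. Eno3, the muscle enolase, changed by -0.27 with IRF4 (adjusted p = 0.222).

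Of 8 further pentose phosphate genes 2 fell (25%) and 1 rose (12.5%) in low IL-7, near the 19.6% and 17.8% of all genes. Prps1, which turns ribose 5-phosphate into the precursor of nucleotides, changed by -1.06 (SE 0.11, adjusted p = 2.87e-05) and Prps1l3 by -0.42 (SE 0.08, adjusted p = 0.0017). Pgm2l1, which makes glucose 1,6-bisphosphate, rose by 0.88 (SE 0.12, adjusted p = 0.000175), and was the 1 member of the list that rose with IRF4, by 0.62 (SE 0.12, adjusted p = 0.0175). H6pd, the glucose 6-phosphate dehydrogenase of the endoplasmic reticulum, passed neither test, at -0.31 in low IL-7 (adjusted p = 0.0726) and -0.46 with IRF4 (adjusted p = 0.0903).

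Genes of the steps after pyruvate also fell in low IL-7. Of 9 genes of pyruvate entry into mitochondria 6 fell and none rose (median -0.45), with Dlat, the core of pyruvate dehydrogenase, at -0.82 (SE 0.10, adjusted p = 8.27e-05), Pdp2, a phosphatase that activates that enzyme, at -0.95 (SE 0.23, adjusted p = 0.00749), and Mpc1, of the pyruvate carrier, at -0.45 (SE 0.10, adjusted p = 0.00363). Dld, a shared subunit of the dehydrogenase complexes, was at -0.41 (SE 0.09, adjusted p = 0.00337), and Pcx, pyruvate carboxylase, did not pass (-0.22, adjusted p = 0.172). Of 19 TCA cycle genes 11 fell and none rose (median -0.30), with Suclg2 at -1.32 (SE 0.12, adjusted p = 1.27e-05), Idh3a at -1.06 (SE 0.07, adjusted p = 2.38e-06), Suclg1 at -0.74, Sdhd at -0.58 and Dlst at -0.40, while Idh2, at -0.15 (adjusted p = 0.446), did not pass. The serine branch, which leaves glycolysis at 3-phosphoglycerate, fell in all 8 genes tested (median -1.39). Shmt2, which passes a carbon of serine to folate in mitochondria, changed by -2.04 (SE 0.14, adjusted p = 2.09e-06), Phgdh, the entry enzyme of the branch, by -1.82 (SE 0.16, adjusted p = 1.08e-05), Mthfd2 by -1.40, Shmt1, the enzyme of the cytosol, by -1.38 (SE 0.09, adjusted p = 1.53e-06) and Mthfd1l by -0.78. With IRF4 none of the genes in these 3 lists passed limma's test after adjustment, while an unadjusted p under 0.05 was reached by 1 gene of the TCA cycle and 0 of the other two lists.

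**Figure D4:**
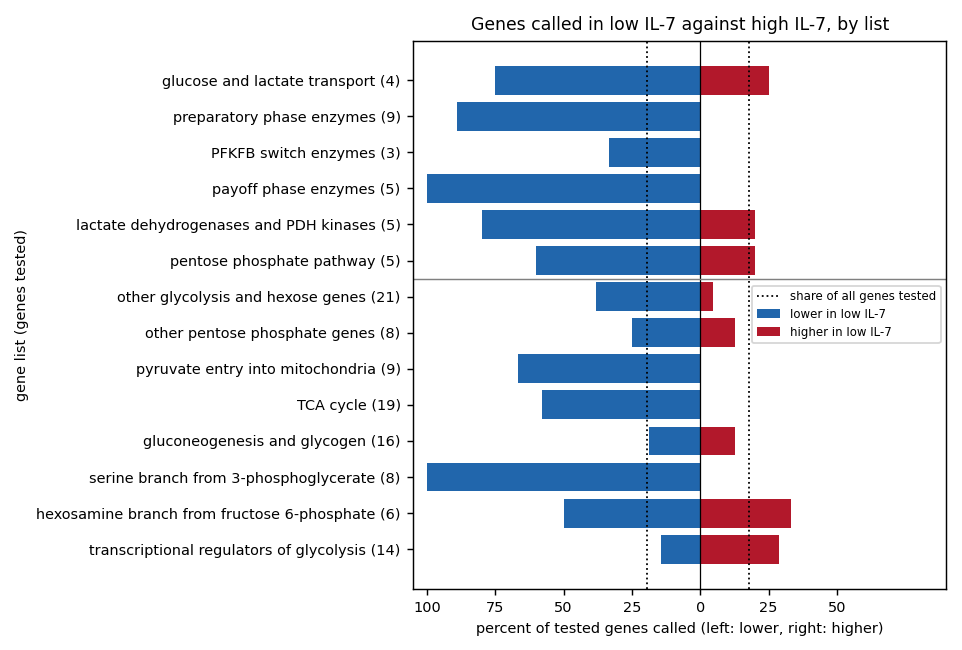
Percent of tested genes called lower (left, blue) and higher (right, red) in low IL-7 against high IL-7 for the 6 role groups above the grey line and 8 further lists below it, with the number of genes tested in brackets. The payoff phase bar includes Eno2, which passed the filter only through the other groups. Dotted lines mark 19.6% and 17.8%, the shares of all genes called lower and higher.

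Of 14 tested genes that regulate glycolysis at the level of transcription, 4 rose (28.6%) and 2 fell (14.3%) in low IL-7. Over all genes 17.8% rose and 19.6% fell. Myc, the growth regulator whose targets include many glycolytic genes, read 514, 673 and 488 in low IL-7, 2949, 2517 and 2735 in IRF4 arrays and 4565, 2768 and 3605 in high IL-7, with low IL-7 far below both other groups. It fell by 2.66 (SE 0.17, adjusted p = 1.95e-06) in low IL-7 while the IRF4 value was -0.39 (adjusted p = 0.33). Max, its partner, fell there by 0.39 (adjusted p = 0.034). Among the MAX partners that oppose MYC, Mxd4 rose by 1.56 (SE 0.18, adjusted p = 6.18e-05) and Mxd3 by 1.02 (SE 0.11, adjusted p = 5.11e-05), while Mxd1, at 0.24 (adjusted p = 0.0629), and Mxi1, at 0.26 (adjusted p = 0.0833), did not pass. Mxd3 also rose with IRF4, by 0.58 (adjusted p = 0.0216).

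The glucose sensor Mlxip, also called MondoA, rose by 0.69 (SE 0.10, adjusted p = 0.000361) in low IL-7. Its known targets Txnip and Arrdc4, which restrain glucose uptake, changed by 0.12 (adjusted p = 0.755) and 0.08 (adjusted p = 0.755), and its partner Mlx by -0.21 (adjusted p = 0.197). Of the hypoxia factors, Hif1a changed by -0.18 (adjusted p = 0.27), but its other probe sets past the filter by -0.32 (adjusted p = 0.0951) and -0.66 (adjusted p = 0.00354). Epas1 changed by -0.68 (adjusted p = 0.37), and its other probe set past the filter by 0.12 (adjusted p = 0.378). The first read 138, 145 and 130 in low IL-7, 425, 94.3 and 80.2 in IRF4 arrays and 116, 417 and 242 in high IL-7. Its 3 highest values came from the arrays with the highest stromal marker sums, and the part of stromal cells was not tested. Arnt, the partner of both factors, rose by 0.26 (adjusted p = 0.033), as in 2 of its 3 probe sets. Mycn, a relative of Myc, was called in the IRF4 comparison through 1 of 3 probe sets. The one with the highest mean read 277, 317 and 296 in low IL-7, 6358, 8100.3 and 9089.6 in IRF4 arrays and 267, 269 and 282 in high IL-7, a rise of 4.75 (SE 0.12, adjusted p = 2.75e-08). The second read 427, 353 and 398 in low IL-7, 1239, 900.2 and 978 in IRF4 arrays and 1377, 883 and 1134 in high IL-7, low in low IL-7 (-1.47, adjusted p = 6.45e-05) and at -0.11 with IRF4 (adjusted p = 0.821). The third stayed between 217 and 340 in all arrays.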

How the data were processed

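The values deposited by the authors are linear intensities of 45101 probe sets on 9 arrays. Their summary and scaling steps are not given in the sources used here. No added normalization was applied, since array medians differed by only 0.11 on the log2 scale. The array format does not measure total RNA per cell.

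Values were taken as log2(intensity + 16). Probe sets with 1 symbol (34945, beside 932 with several and 9160 with none) stayed in when they averaged over the 9 arrays at least the 40th percentile (108.0). The brightest stood for its gene. The 64 control probe sets were left out except those of Gapdh. The 3 group means were fitted over all arrays with limma 3.58.1 (R 4.3.3), with moderated tests, a variance trend and Benjamini-Hochberg adjustment over 12829 genes. A gene was called at an adjusted p under 0.05. Replicates correlated at 0.976 to 0.995 and no pair of arrays shared over 2 identical values.

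The members and lists were chosen with earlier results of these data known. All 36 members were to be named, in the other lists up to 4 genes with the smallest p for low IL-7 and 2 for IRF4, and each tested regulator. In a simulation of the low IL-7 comparison with 12829 genes, log2 changes of 0.5, 1 and 2 were recovered in 53.7%, 91% and 98.5% of genes. For IRF4 against high IL-7 the shares were 58.2%, 97% and 100%. Both simulations used the same spread per gene, so their shares differ by the random draw alone. Only 67, 67 and 66 genes carried these changes, while 4802 were called in the low IL-7 data. The noise was drawn independently for each array, unlike the correlated deviations of the data. The shares therefore do not give the recovery in the real comparisons. Same-numbered low and high IL-7 arrays correlated in their deviations from the group means (0.55, 0.39 and 0.29), so their numbers were taken as pairs, from the data alone. Same-numbered IRF4 and high IL-7 arrays did not (-0.38, -0.16 and -0.35), nor did low IL-7 and IRF4 arrays (-0.01, -0.10 and -0.15). Figures were drawn with matplotlib 3.10.9.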

Additional observations from a re-analysis of the deposited data

How the results depend on the processing

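Of the 27 members called in low IL-7 against high IL-7, 26 kept call and direction under each of up to 22 alternatives in which they were tested, and Slc16a1 lost its call under 3. Slc16a3, Aldoc, Eno2 and Pdk2 were not tested under the filter at the 60th percentile. No direction of a called member reversed. Leaving out single arrays gave 24 to 25 members lower and 2 to 3 higher in low IL-7, with 3802 to 5145 genes called. For IRF4 against high IL-7 it gave 0 to 7 members lower and 1 higher, with 195 to 605 genes called against 365. For low IL-7 against IRF4 it gave 18 to 22 lower and 2 to 3 higher, with 3573 to 4924 genes called. Array weights moved most counts: 5 members higher in low IL-7 with 8322 genes called, 16 lower and 2 higher with IRF4 with 3321 genes called, and 7809 genes called between low IL-7 and IRF4. The replicate block gave 4 lower and 2 higher with IRF4, where the deviations of same-numbered arrays correlated negatively. In the comparison of low with high IL-7, where the pairing was inferred from the data alone, it gave 25 lower and 4 higher. It gained Hk1 and Taldo1 and changed no other member's call. A block fitted on those 2 groups alone, added after the data were seen, gave 25 and 4 with 5890 genes called. For IRF4, a fit on the 2 groups alone left 0 lower with 222 genes called, and no filter, arrays scaled to 1 median, or leaving out the 2 arrays with low 18S signal (added after the data were seen) each left 1. Scaling to 1 median changed the split between low IL-7 and IRF4 to 1739 higher and 2908 lower, against 2275 and 2392. The cause of these shifts was not tested. With no detection calls deposited, dim probe sets such as those of Eno2, Aldoc, Pfkfb2 and, outside low IL-7, Pdk2 are not known to stand above background.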

Other observations

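Sugar stores and the hexosamine branch held genes that rose and genes that fell. Of 16 genes of gluconeogenesis and glycogen 2 rose (12.5%) and 3 fell (18.8%) in low IL-7 (median 0.01), near the 17.8% and 19.6% of all genes. Phka2, a regulatory subunit of phosphorylase kinase, which switches on glycogen breakdown, rose by 1.17 (SE 0.12, adjusted p = 3.91e-05). Fbp1, which runs the phosphofructokinase step backwards, rose by 0.45 (SE 0.10, adjusted p = 0.00596). Slc37a4, the glucose 6-phosphate carrier of the endoplasmic reticulum, changed by -0.53 (SE 0.13, adjusted p = 0.00913) and G6pc3, the phosphatase it feeds, by -0.46 (SE 0.10, adjusted p = 0.00325). Pygm, a glycogen phosphorylase, was the list's 1 call with IRF4, at -0.69 (adjusted p = 0.0371). It passed the filter only through the other groups, and its IRF4 arrays, at 99.1, 98.6 and 96.7, lay under it. Pygl, the liver form, did not pass the test with IRF4 (-0.98, adjusted p = 0.0574). Its IRF4 arrays, at 95.9, 71.2 and 50.8, were under the filter too.

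Of 6 genes of the hexosamine branch, which leaves at fructose 6-phosphate and supplies sugar for protein glycosylation, 2 rose and 3 fell in low IL-7. These were 33.3% and 50%, against 17.8% and 19.6% of all genes. Of the 4 enzymes that build the donor sugar 3 fell, Pgm3 at -0.93 (SE 0.11, adjusted p = 9.41e-05), Gnpnat1 at -0.72 (SE 0.11, adjusted p = 0.000359) and Gfpt1 at -0.78 (SE 0.18, adjusted p = 0.00585), while Uap1 did not pass (-0.38, adjusted p = 0.0657). Gfpt1 and Uap1 were named after their values were seen. Ogt and Oga, which add and remove the sugar on proteins, rose by 0.52 (SE 0.07, adjusted p = 0.000119) and 0.54 (SE 0.11, adjusted p = 0.00292). With IRF4 Ogt fell, by 0.37 (SE 0.07, adjusted p = 0.0125), and its level differed between low IL-7 and IRF4 by 0.89 (SE 0.07, adjusted p = 5.01e-06).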
